A study of Mus musculus with 15 samples.

Results

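The phospholipase A2 genes described here are Pla2g4c, Pla2g4a, Pla2g4f, Pla2g5, Pla2g10, Pla2g12a, Pla2g15 and Pla2g6, taken by symbol from a table of 22063 genes in mouse colon. All 8 were found. The set was chosen by the measured FPKM values of Pla2g4c, which had been seen to be much lower in AOM/DSS colon than in control colon. Its levels are therefore given as a description, with no test, in all 3 comparisons. RNA was sequenced from colon of wild-type C57BL/6 mice in 3 groups of 5 libraries. The first group is labelled WMW-H, after Wumei Wan, a traditional Chinese herbal formula named in the series title, and is presented as the treatment group of a colorectal tumour model. The second received AOM/DSS, that is azoxymethane, a carcinogen, and dextran sulfate sodium, which injures the colon epithelium. The third is the blank control. Neither the dose nor the timing, age or sex is stated in the labels, and the WMW-H label does not itself name AOM/DSS. The labels call the material both colon tissue and colon epithelial cells.

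Phospholipases A2 cut the middle acyl chain from membrane phospholipids and release a free fatty acid and a lysophospholipid. When the fatty acid is arachidonate, it feeds the prostaglandin and leukotriene pathways, which are active in the inflamed and neoplastic colon. The cytosolic group IV enzymes (Pla2g4a, Pla2g4c, Pla2g4f) act on inner membranes. The secreted enzymes (Pla2g5, Pla2g10, Pla2g12a) act mainly outside the cell. Pla2g6 is a calcium-independent enzyme of the cell interior, and Pla2g15 works in the lysosome.

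Start-site windows of the cytosolic genes are shown because these 3 relatives moved in different ways. They come from RefSeq on build GRCm38.p6 and run 250 bases before to 50 bases after each annotated start, with the transcribed bases in capitals. The build of the expression table is not given in the sources used here. Pla2g4c has starts in windows chr7:13325417-13325716 and chr7:13329072-13329371 on the plus strand. Pla2g4a has starts in windows chr1:149961241-149961540 and chr1:149922390-149922689, and Pla2g4f in chr2:120314116-120314415, all on the minus strand and printed in the direction of transcription.
Pla2g4c upstream start: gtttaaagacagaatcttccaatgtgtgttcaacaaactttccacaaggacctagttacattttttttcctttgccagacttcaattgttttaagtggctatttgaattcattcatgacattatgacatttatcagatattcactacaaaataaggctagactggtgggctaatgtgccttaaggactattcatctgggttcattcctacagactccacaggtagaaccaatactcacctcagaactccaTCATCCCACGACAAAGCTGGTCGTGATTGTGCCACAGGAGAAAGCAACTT
Pla2g4c downstream start: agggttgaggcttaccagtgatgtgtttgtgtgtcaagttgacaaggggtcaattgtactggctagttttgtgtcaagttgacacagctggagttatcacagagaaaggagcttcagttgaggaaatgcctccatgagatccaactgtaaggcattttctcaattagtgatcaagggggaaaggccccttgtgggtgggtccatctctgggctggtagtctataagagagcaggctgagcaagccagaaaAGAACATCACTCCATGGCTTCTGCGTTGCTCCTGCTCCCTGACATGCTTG
Pla2g4a upstream start: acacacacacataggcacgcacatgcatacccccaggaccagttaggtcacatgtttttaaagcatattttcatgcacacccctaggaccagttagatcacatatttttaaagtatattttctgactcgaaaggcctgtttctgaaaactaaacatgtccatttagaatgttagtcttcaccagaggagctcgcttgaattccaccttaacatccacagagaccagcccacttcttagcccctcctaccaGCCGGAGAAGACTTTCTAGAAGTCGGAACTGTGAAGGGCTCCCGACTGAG
Pla2g4a downstream start: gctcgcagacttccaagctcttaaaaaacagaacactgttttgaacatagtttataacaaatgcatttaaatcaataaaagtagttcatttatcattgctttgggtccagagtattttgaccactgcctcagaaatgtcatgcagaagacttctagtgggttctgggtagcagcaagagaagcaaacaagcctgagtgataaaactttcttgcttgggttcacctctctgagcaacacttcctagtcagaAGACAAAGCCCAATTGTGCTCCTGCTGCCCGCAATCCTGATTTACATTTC
Pla2g4f start: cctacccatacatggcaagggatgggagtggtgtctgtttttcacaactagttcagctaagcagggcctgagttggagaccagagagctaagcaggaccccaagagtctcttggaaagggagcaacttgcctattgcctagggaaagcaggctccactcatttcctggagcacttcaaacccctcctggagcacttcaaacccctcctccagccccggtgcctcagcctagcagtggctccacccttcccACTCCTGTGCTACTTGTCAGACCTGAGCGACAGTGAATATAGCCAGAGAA

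All 8 members had a RefSeq window, 11 windows in all. Both strands of each were searched for 4 short motifs, none of which contains another, and the same search was made in all 32851 RefSeq windows of that length. The core of the interferon-stimulated response element, written here as 2 GAAA repeats with any 2 bases between them, occurred in 3.44% of all windows. The TCF/LEF motif CTTTGAT, read by the factors at the end of the Wnt pathway, occurred in 3.73%. A TATA box with the letters TATAAA was found in 13.6% and a GC box, the site of Sp1-type factors, with the letters GGGCGG in 35.7%. In the windows printed above, the only match was TATAAA upstream of the downstream Pla2g4a start, on the strand opposite to transcription. The search took exact letters on either strand at any position, so this match is not a TATA box placed for that start. Of the other members, Pla2g6 held the interferon element core, and Pla2g6, Pla2g10 and Pla2g15 held a GC box. The Pla2g4c windows held 2 and 1 CG pairs, against a median of 7 per window in all genes. Low numbers were not particular to Pla2g4c. The Pla2g4f window held 2, and the Pla2g4a windows held 6 upstream and 2 downstream. Windows of the other members held 4 to 19. A match of letters is a description and does not show that a factor binds.

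Libraries held 16349600 to 21133800 fragments, as read from the steps of low values, with 16377 to 16692 genes above 0. WMW-H replicate 3 stood apart. Its counts differed from those of the other WMW-H libraries with a mean chi-square of 27.6 to 35.4 per degree of freedom, against 2.79 to 4.57 between the other WMW-H libraries. No call on a member was lost without it. All 10 colon epithelium markers were present in each group. Transcripts of other organs were present too: 11 acinar markers of the pancreas summed to 8870 to 9230 FPKM in WMW-H, 5020 to 5160 FPKM in AOM/DSS and 23300 to 23900 FPKM in control. Seminal vesicle markers (4 of 5 found) summed to 2280 to 2410 FPKM in AOM/DSS, where WMW-H had at most 3.81 FPKM and control at most 3.14 FPKM. FPKM is the deposited unit, a fragment count scaled by transcript length and by sequencing depth, and allows levels of different genes to be set side by side.

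Pla2g4c (ENSMUSG00000033847) encodes a cytosolic enzyme of group IV that, unlike Pla2g4a, lacks the calcium-binding C2 domain. Its levels were 10.3, 11.2, 11.9, 10.7 and 11.2 FPKM in the WMW-H libraries. They were 5.08, 5.44, 5.34, 5.64 and 5.36 FPKM in AOM/DSS, and 61.2, 59.8, 60.2, 61.0 and 58.0 FPKM in control. The 3 groups did not overlap: every control library lay far above all others, and every WMW-H library lay above every AOM/DSS library. The mean in AOM/DSS, 5.37 ± 0.20 FPKM (SD, n = 5), was 8.95% of the control mean of 60.0 ± 1.3 FPKM. In WMW-H the mean of 11.1 ± 0.61 FPKM was 2.06 times that in AOM/DSS and 18.5% of that in control. On the scale of log2(FPKM + 1), the differences were -3.26 for AOM/DSS minus control, 0.92 for WMW-H minus AOM/DSS and -2.34 for WMW-H minus control. With coding transcripts of 2154 to 3390 nucleotides in GENCODE release M21, the AOM/DSS values correspond to about 218 to 343 fragments per library. The spread between AOM/DSS libraries, 3.8% of the mean, compares with 5.4% to 6.77% that counting alone would give at those numbers. In the other groups the spread was above counting error. It was 5.5% against 3.89% to 4.88% in WMW-H, and 2.1% against 1.62% to 2.03% in control. GENCODE also annotates a pseudogene, Pla2g4c-ps, and how reads shared with it were assigned is not given in the sources used here.

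**Figure D1:**
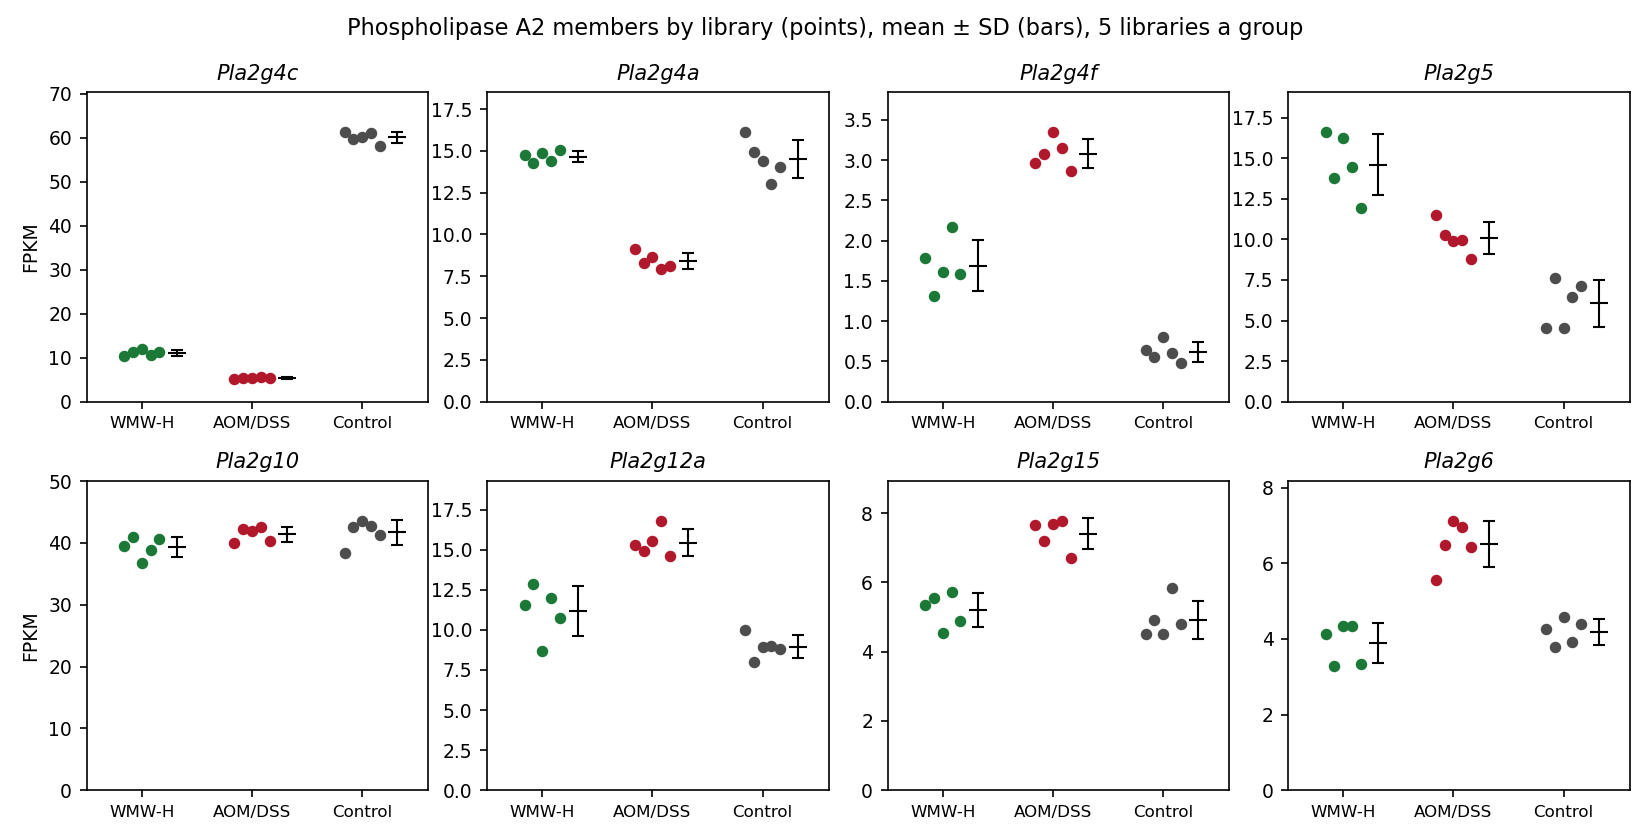
FPKM of each of the 8 members (y axis, linear, from 0) in the WMW-H, AOM/DSS and control groups (x axis); each point is a library and each bar the mean ± SD of 5 libraries. Pla2g4c sits at 58.0 to 61.2 FPKM in control and at 11.9 FPKM or lower elsewhere, Pla2g4f, Pla2g12a, Pla2g15 and Pla2g6 peak in AOM/DSS, Pla2g5 in WMW-H, and the Pla2g10 groups overlap.

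Marker sums of 3 lists had the order of groups seen for Pla2g4c. The pancreatic acinar sums given above were lowest in AOM/DSS, intermediate in WMW-H and highest in control, as Pla2g4c was. All 11 acinar markers were called lower in AOM/DSS than in control and all 11 higher in WMW-H than in AOM/DSS. Of all tested genes, 45.5% were called higher and 20.6% lower in AOM/DSS than in control. In WMW-H against AOM/DSS, 25.9% of all tested genes were called higher and 40.9% lower. None of the 11 was at 0 throughout a group. Colon epithelium markers summed to 8890 to 9080 FPKM in WMW-H, 8440 to 8470 FPKM in AOM/DSS and 10100 to 10300 FPKM in control, but its 10 genes were split, with 3 higher and 7 lower in AOM/DSS than in control and 5 higher and 4 lower in WMW-H than in AOM/DSS. B and plasma cell markers, 5 of 5 found, summed to 359 to 413 FPKM in WMW-H, 218 to 245 FPKM in AOM/DSS and 532 to 558 FPKM in control. Of these 5, 4 were called lower in AOM/DSS than in control, and 1 higher and 4 lower in WMW-H than in AOM/DSS. The part of these cells in the Pla2g4c levels was not tested. In bulk tissue, fewer cells of a type and less RNA per cell cannot be told apart.

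In AOM/DSS against control, 5 of the other 7 members were called higher, 1 lower and 1 was not called (limma, Benjamini-Hochberg adjusted p under 0.05 over 12917 genes tested). Those that rose were Pla2g4f, Pla2g5, Pla2g12a, Pla2g15 and Pla2g6, and Pla2g4a fell. Calls were common in this comparison: 66.1% of all tested genes were called, 45.5% higher and 20.6% lower, with a median difference of 0.12 on the log2(FPKM + 1) scale. The 6 members called were also those whose 2 groups did not overlap, as held for 52.9% of tested genes, with 36.9% above. All 8 members passed the filter of 1 FPKM in 5 libraries. Pla2g4f stayed under 1 FPKM in every control library and passed through the other groups, so its direction against control was fixed by the filter. Without it, 4 of 6 members were called higher and 1 lower.

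Pla2g4a (ENSMUSG00000056220) encodes the calcium-dependent cytosolic enzyme that prefers arachidonate-containing phospholipids. It measured 14.7, 14.3, 14.9, 14.4 and 15.1 FPKM in WMW-H, 9.14, 8.28, 8.65, 7.93 and 8.11 FPKM in AOM/DSS, and 16.1, 14.9, 14.4, 13.0 and 14.01 FPKM in control. Every AOM/DSS library lay below every library of the other groups, while WMW-H lay within the range of control. Pla2g4a fell by 0.72 log2 units in AOM/DSS against control (SE 0.05, limma adjusted p = 1.12e-09). Relative to AOM/DSS it rose in WMW-H by 0.73 (SE 0.05, limma adjusted p = 1.19e-09). WMW-H minus control was 0.02 (95% interval -0.09 to 0.12, limma adjusted p = 0.777). Thus both Pla2g4c and Pla2g4a were lowest in AOM/DSS, but the WMW-H mean was 101% of control for Pla2g4a and 18.5% of control for Pla2g4c. The ratio of Pla2g4c to Pla2g4a within a library was 0.756 ± 0.04 in WMW-H, 0.641 ± 0.058 in AOM/DSS and 4.16 ± 0.32 in control (SD, n = 5 each).

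Pla2g4f (ENSMUSG00000046971), another calcium-dependent group IV enzyme, went the other way. Its levels were low, at 1.78, 1.31, 1.61, 2.17 and 1.59 FPKM in WMW-H, 2.97, 3.08, 3.35, 3.15 and 2.87 FPKM in AOM/DSS, and 0.638, 0.552, 0.804, 0.600 and 0.480 FPKM in control. The 3 groups did not overlap, with AOM/DSS highest and WMW-H between the others. By group means, Pla2g4f was 5.01 times as high in AOM/DSS as in control and 2.75 times as high in WMW-H as in control. At such low levels the log2(FPKM + 1) scale compresses these ratios: the differences from control were 1.34 for AOM/DSS and 0.73 for WMW-H, and 2.17 and 1.32 with a pseudocount of 0.1. No p-value is given against control, since the gene passed the filter only through the groups in which it is high. In WMW-H it fell by 0.61 against AOM/DSS (limma adjusted p = 3.45e-06). Its 1 coding transcript of 3116 nucleotides gives about 93 fragments per library in WMW-H, 181 in AOM/DSS and 36 in control, so counting error alone is 16.7% of a control value.

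Among the secreted enzymes, Pla2g5 (ENSMUSG00000041193), which hydrolyses phosphatidylcholine outside the cell and is known from macrophages and heart, was highest in WMW-H. It measured 16.6, 13.8, 16.3, 14.5 and 12.0 FPKM in WMW-H, 11.5, 10.3, 9.90, 9.96 and 8.81 FPKM in AOM/DSS, and 4.54, 7.62, 4.53, 6.46 and 7.12 FPKM in control. No groups overlapped, although the control libraries spread widely, with a mean of 6.05 ± 1.45 FPKM (SD, n = 5). Pla2g5 rose in AOM/DSS against control by 0.67 (SE 0.12, limma adjusted p = 0.000117) and again in WMW-H against AOM/DSS by 0.49 (SE 0.12, limma adjusted p = 0.00194). WMW-H was 2.41 times control by group means, a log2 difference of 1.16 (limma adjusted p = 3.69e-07). It was the only one of the 8 whose order of group means was WMW-H, then AOM/DSS, then control.

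The summed fibroblast markers, 6 of 6 found, had that order too, at 380 to 416 FPKM in WMW-H, 329 to 350 FPKM in AOM/DSS and 202 to 209 FPKM in control. Single genes were split: 4 were called higher and 2 lower in AOM/DSS than in control, as in WMW-H against AOM/DSS, and 6 higher in WMW-H than in control. Of all tested genes, 45.5%, 25.9% and 35.4% were higher in these 3 comparisons, and 20.6%, 40.9% and 24.1% lower. Paneth marker sums ran the same way, but AOM/DSS overlapped both other groups. They were 1360 to 1490 FPKM in WMW-H, 1340 to 1400 FPKM in AOM/DSS and 1330 to 1360 FPKM in control. Macrophage and monocyte markers, 8 of 8 found, summed to 508 to 550 FPKM in WMW-H, 657 to 669 FPKM in AOM/DSS and 295 to 317 FPKM in control. None of these markers was at 0 throughout a group. Their part in the Pla2g5 levels was not tested.

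Pla2g10 (ENSMUSG00000022683), a secreted enzyme highly active on phosphatidylcholine, was the steadiest member. It ranged from 36.8 to 40.9 FPKM in WMW-H, from 39.9 to 42.5 FPKM in AOM/DSS and from 38.4 to 43.6 FPKM in control, and all groups overlapped. AOM/DSS minus control was -0.01 on the log2 scale (95% interval -0.09 to 0.07, limma adjusted p = 0.836). WMW-H minus AOM/DSS was -0.07 (95% interval -0.15 to 0.01, limma adjusted p = 0.0953), and WMW-H minus control was -0.08 (SE 0.04, limma adjusted p = 0.0677). These small values depended on scaling. With median-of-ratios size factors, AOM/DSS minus control became -0.13 (limma adjusted p = 0.00456) and WMW-H minus control -0.13 (limma adjusted p = 0.00371), and with values rescaled to a common total, WMW-H minus AOM/DSS became -0.13 (limma adjusted p = 0.00845). WMW-H minus control also passed without control replicate 1, at -0.11 (limma adjusted p = 0.0114), and without WMW-H replicate 2, at -0.10 (limma adjusted p = 0.0464).

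Pla2g12a (ENSMUSG00000027999), an atypical secreted member with low activity in vitro, peaked in AOM/DSS. The libraries gave 11.5, 12.9, 8.69, 12.0 and 10.8 FPKM in WMW-H, 15.3, 14.9, 15.5, 16.8 and 14.6 FPKM in AOM/DSS, and 10.003, 8.01, 8.95, 8.96 and 8.82 FPKM in control. Every AOM/DSS library was above all others, and WMW-H overlapped control only through its replicate 3. Pla2g12a rose in AOM/DSS against control by 0.72 (SE 0.08, limma adjusted p = 3.93e-07) and fell by 0.44 in WMW-H against AOM/DSS (SE 0.08, limma adjusted p = 0.000106). It stayed above control in WMW-H by 0.28 (limma adjusted p = 0.00523), a call lost in the exact permutation test (adjusted p = 0.069; 8.15e-05 to 0.069 over all alternatives).

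Pla2g15 (ENSMUSG00000031903), the lysosomal enzyme, and Pla2g6 (ENSMUSG00000042632), whose loss in humans causes neurodegeneration, shared this pattern at lower levels. Pla2g15 ranged from 4.54 to 5.73 FPKM in WMW-H, 6.71 to 7.77 FPKM in AOM/DSS and 4.51 to 5.84 FPKM in control. Pla2g6 measured 4.13, 3.30, 4.34, 4.34 and 3.33 FPKM in WMW-H, 5.57, 6.48, 7.12, 6.95 and 6.42 FPKM in AOM/DSS, and 4.25, 3.77, 4.58, 3.92 and 4.41 FPKM in control. For both genes AOM/DSS lay above the other groups without overlap, and WMW-H overlapped control. Pla2g15 rose in AOM/DSS by 0.51 (SE 0.07, limma adjusted p = 5.51e-06) and fell by 0.44 in WMW-H against AOM/DSS (SE 0.07, limma adjusted p = 2.9e-05). Pla2g6 rose in AOM/DSS by 0.53 (SE 0.08, limma adjusted p = 1.39e-05) and fell by 0.62 in WMW-H against AOM/DSS (SE 0.08, limma adjusted p = 2.43e-06). WMW-H minus control was 0.07 for Pla2g15 (95% interval -0.07 to 0.22, limma adjusted p = 0.392). For Pla2g6 it was -0.09 (95% interval -0.26 to 0.08, limma adjusted p = 0.338).

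**Figure D2:**
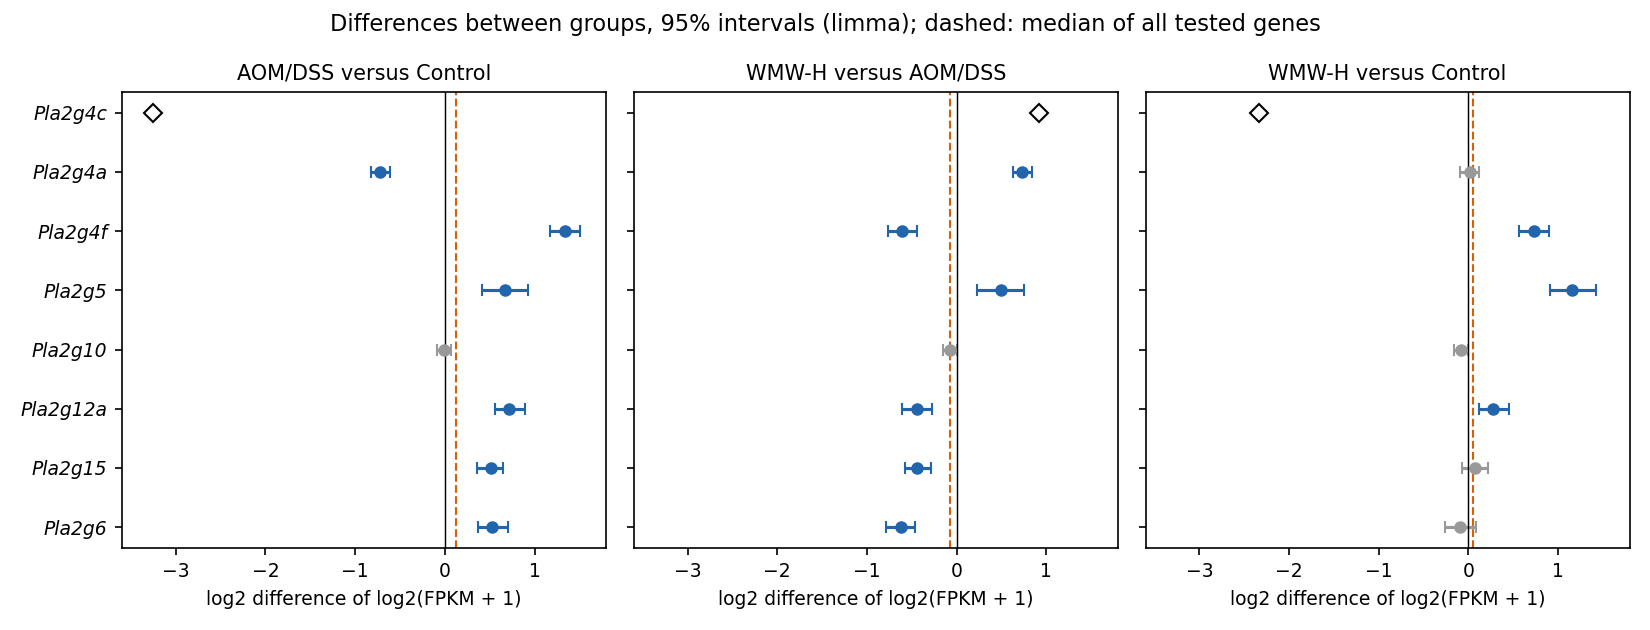
Log2 differences of log2(FPKM + 1) (x axis) for each member (y axis) in the 3 comparisons; circles with bars are limma estimates with 95% intervals, blue where called and grey where not, open diamonds are Pla2g4c with no test, and the dashed line is the median of all tested genes. Pla2g4a and Pla2g4c lie left of 0 in AOM/DSS versus control and right of 0 in WMW-H versus AOM/DSS, opposite to Pla2g4f, Pla2g12a, Pla2g15 and Pla2g6, and Pla2g5 lies right of 0 in all 3; the direction of Pla2g4f against control was fixed by the filter on low values.

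In WMW-H against AOM/DSS, 2 of the 7 members other than Pla2g4c were called higher (Pla2g4a and Pla2g5), 4 lower (Pla2g4f, Pla2g12a, Pla2g15 and Pla2g6) and 1 was not called. Of all tested genes, 66.8% were called, 25.9% higher and 40.9% lower. The 6 called members had groups without overlap, as did 51.2% of tested genes (18.8% above and 32.3% below). In WMW-H against control, 3 members were called higher (Pla2g4f, Pla2g5 and Pla2g12a), 0 lower and 4 were not called, where 59.5% of tested genes were called, 35.4% higher and 24.1% lower. Groups did not overlap for 2 of the 7 (Pla2g4f and Pla2g5), both above, and for 42.3% of tested genes (25.3% above and 17.0% below). More than 1 in 2 of the 12917 tested genes were thus called in every comparison, and the members' calls are given as counts only. Without Pla2g4f, 2 of 6 members were higher in WMW-H than in control. The 3 comparisons share libraries: both comparisons with AOM/DSS use the same 5 AOM/DSS libraries, so a peak or trough there enters both.

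Taken as levels per length, the members changed places. In control the order was Pla2g4c, Pla2g10, Pla2g4a, Pla2g12a, Pla2g5, Pla2g15, Pla2g6 and Pla2g4f, in which Pla2g5 and Pla2g15, and Pla2g15 and Pla2g6, overlapped between libraries. In both other groups Pla2g10 came first, while Pla2g4c ranked 5 of 8 in WMW-H, overlapping Pla2g12a, and 7 of 8 in AOM/DSS, overlapping Pla2g6. The 8 members summed to 102 ± 2.3 FPKM in WMW-H, 97.7 ± 2.8 FPKM in AOM/DSS and 141 ± 1.6 FPKM in control (SD, n = 5 each). Without Pla2g4c, the other 7 summed to 90.6 ± 2.8 FPKM in WMW-H, 92.3 ± 2.8 FPKM in AOM/DSS and 80.9 ± 1.5 FPKM in control. Pla2g4c made up 10.9% ± 0.81 of the sum in WMW-H, 5.5% ± 0.20 in AOM/DSS and 42.6% ± 0.80 in control. Pla2g10 made up 38.7% ± 1.5 in WMW-H, 42.4% ± 0.89 in AOM/DSS and 29.6% ± 1.2 in control, although its own level differed little.

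**Figure D3:**
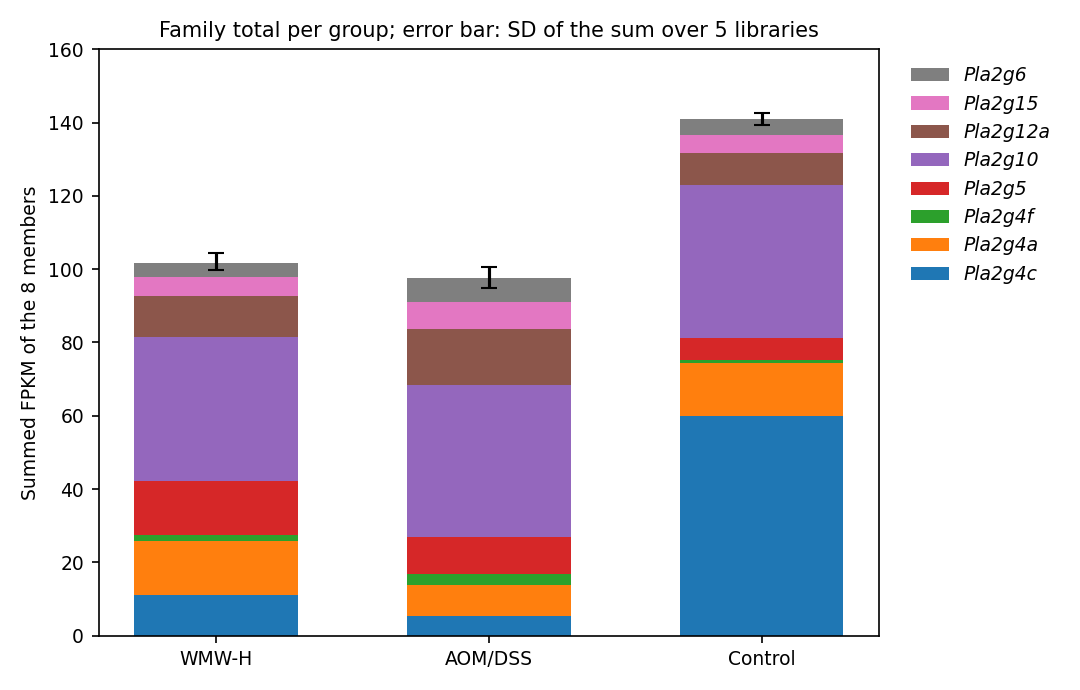
Stacked group means of the 8 members in FPKM (y axis, from 0) for WMW-H, AOM/DSS and control (x axis); the error bar is the SD of the summed FPKM over 5 libraries. The control column stands highest, at 141 FPKM, and its lowest block, Pla2g4c, is at 60.0 FPKM there, against 11.1 FPKM in WMW-H and 5.37 FPKM in AOM/DSS.

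The wider family was followed through 17 further symbols, of which 15 were found and 10 passed the filter. In AOM/DSS against control, 4 of the 10 were called higher, 3 lower and 3 were not called (median log2 difference 0.05, all genes 0.12), where 45.5% of all tested genes were higher and 20.6% lower. In WMW-H against AOM/DSS, 3 were higher, 5 lower and 2 not called (median -0.12, all genes -0.07), where 25.9% of all tested genes were higher and 40.9% lower. The 5 became 3 with size factors, quantile normalization, a filter of 5 FPKM or the exact permutation test. In WMW-H against control, 2 were higher, 5 lower and 3 not called (median -0.10, all genes 0.05), where 35.4% of all tested genes were higher and 24.1% lower. The 2 higher became 4 with values rescaled to a common total, and 1 without any of 7 libraries (WMW-H replicates 2, 4 and 5, AOM/DSS replicate 1 and control replicates 1, 3 and 4). Pla2g2e, which passed the filter only through AOM/DSS, is among these calls; without it 3 of 9 were higher and 3 lower in AOM/DSS than in control, 3 higher and 4 lower in WMW-H than in AOM/DSS, and 1 higher and 5 lower in WMW-H than in control. Pla2g2a, which carries a frameshift in the C57BL/6 strain, was not analysed here.

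Pla2g5 lies in a cluster of secreted enzymes on chromosome 4, in the order Pla2g2c, Pla2g2f, Pla2g2d, Pla2g5 and Pla2g2e, with 1 other gene model between the last pair (RefSeq, GRCm38.p6). Among its neighbours, Pla2g2f and Pla2g2d had other orders of groups. Pla2g2f, best known from epidermis, ranged from 8.48 to 9.57 FPKM in WMW-H, from 19.5 to 21.1 FPKM in AOM/DSS and from 8.94 to 10.7 FPKM in control. It rose in AOM/DSS by 0.96 (SE 0.05, limma adjusted p = 9.63e-12) and fell by 1.10 in WMW-H against AOM/DSS (SE 0.05, limma adjusted p = 3.5e-12). Pla2g2d, known from dendritic cells of lymphoid tissue, was at 1.01 ± 0.089 FPKM in WMW-H, 2.62 ± 0.41 FPKM in AOM/DSS and 2.33 ± 0.22 FPKM in control. In WMW-H it fell by 0.84 against AOM/DSS (limma adjusted p = 4.51e-08) and fell by 0.73 against control (limma adjusted p = 3.87e-07), and its AOM/DSS minus control value of 0.12 was not called (limma adjusted p = 0.191).

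Pla2g2e, at the end of the cluster, measured 0.37 ± 0.13 FPKM in WMW-H, 1.77 ± 0.35 FPKM in AOM/DSS and 0.150 ± 0.13 FPKM in control. It reached 1 FPKM in AOM/DSS libraries only, so the filter fixed its direction there and no p-value is given against AOM/DSS. The AOM/DSS mean was 11.8 times the control mean, a difference of 1.27 on the log2(FPKM + 1) scale, 1.82 with a pseudocount of 0.5 and 3.06 with 0.1. WMW-H minus control, 0.26 (limma adjusted p = 0.0423), lost its call in 9 of 25 alternatives, and turned to -0.09 after quantile normalization (limma adjusted p = 0.457; 0.0117 to 0.457 over all alternatives). Pla2g2c averaged 0.831 FPKM in WMW-H, 0.764 FPKM in AOM/DSS and 0.371 FPKM in control and was not tested. The close relatives of Pla2g4f on chromosome 2, Pla2g4b, Pla2g4d and Pla2g4e, stayed under 0.25 FPKM in every library.

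**Figure D4:**
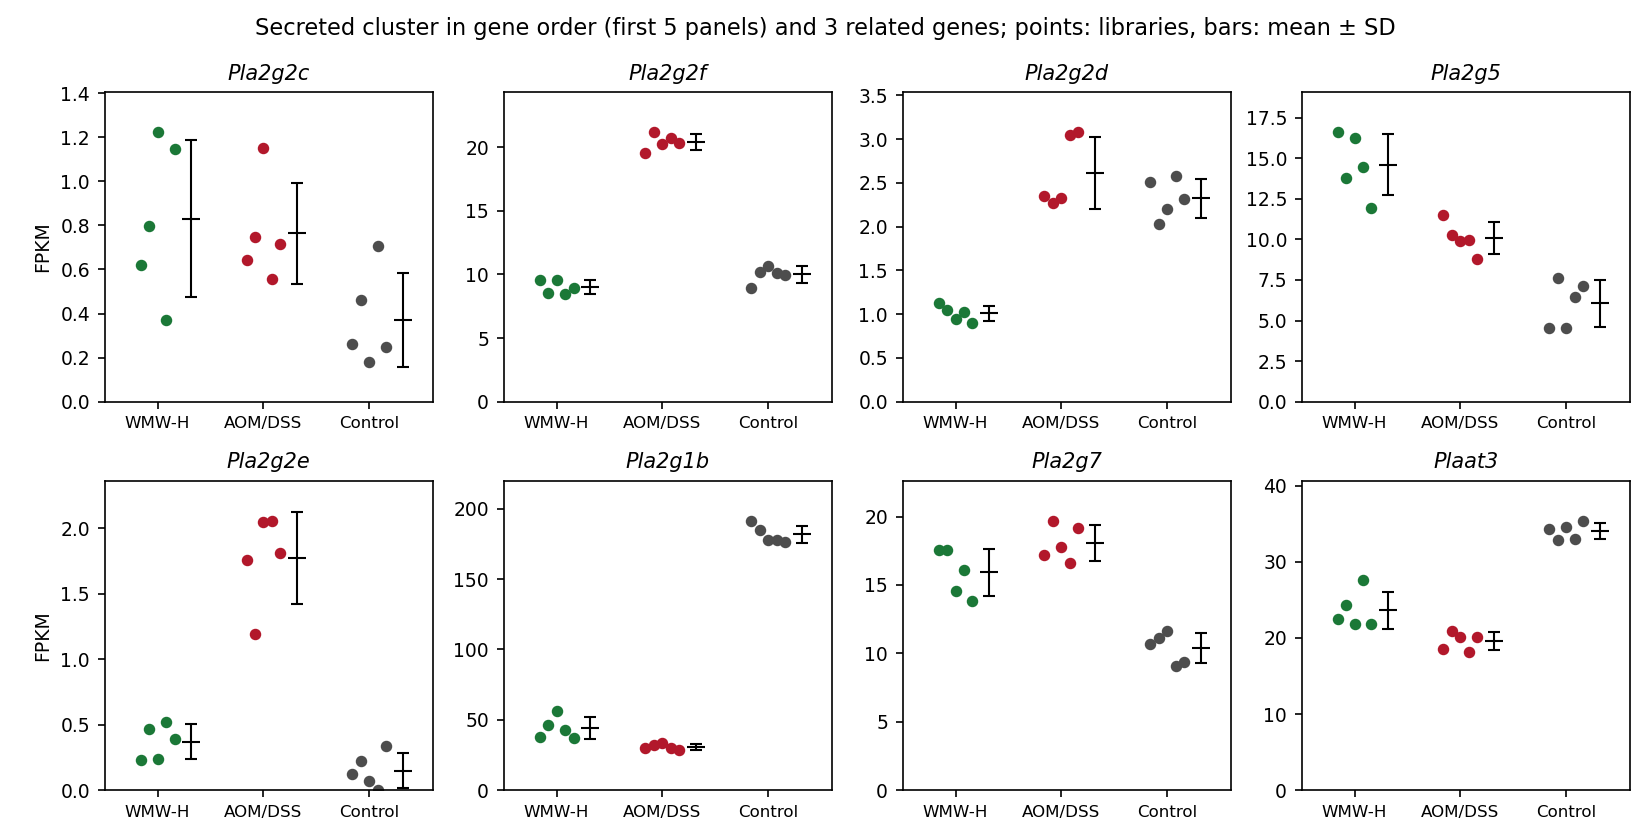
FPKM (y axis, linear, from 0) of the secreted cluster in gene order and of Pla2g1b, Pla2g7 and Plaat3, by group (x axis); points are libraries and bars mean ± SD of 5. Pla2g2f and Pla2g2e stand out in AOM/DSS, Pla2g2d is lowest in WMW-H, Pla2g5 is highest in WMW-H, and Pla2g1b and Plaat3 are highest in control.

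Pla2g1b, the digestive enzyme secreted by the pancreas, measured 38.0, 46.5, 56.6, 42.6 and 37.3 FPKM in WMW-H, 30.2, 32.3, 33.6, 29.8 and 28.2 FPKM in AOM/DSS, and 191, 185, 178, 178 and 176 FPKM in control. The groups did not overlap, and WMW-H replicate 3 was the highest of its group. Pla2g1b fell by 2.52 in AOM/DSS against control (SE 0.08, limma adjusted p = 4.69e-14). It rose in WMW-H against AOM/DSS by 0.49 (limma adjusted p = 7.11e-05) and stayed below control, at a difference of -2.03 (limma adjusted p = 2.6e-12). Pla2g1b is itself 1 of the 11 acinar markers, whose sums are given above.

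Of the remaining relatives, Plaat3, a phospholipase of adipose tissue, fell by 0.77 in AOM/DSS (limma adjusted p = 2.38e-09), was 0.26 higher in WMW-H than in AOM/DSS (limma adjusted p = 0.000722) and was below control in WMW-H, at -0.51 (limma adjusted p = 6.8e-07). Pla2g7, the secreted enzyme of macrophages that inactivates platelet-activating factor, averaged 15.9 ± 1.7 FPKM in WMW-H, 18.1 ± 1.3 FPKM in AOM/DSS and 10.4 ± 1.1 FPKM in control. It rose in AOM/DSS by 0.75 (limma adjusted p = 1.56e-07) and was 0.57 above control in WMW-H (limma adjusted p = 5.76e-06). The macrophage marker sums given above had the same order of groups. All 8 of these markers were called higher in AOM/DSS than in control, where 45.5% of all tested genes were higher. In WMW-H against AOM/DSS 1 was higher and 5 lower, beside 25.9% and 40.9% of all tested genes. Sums of neutrophil, mast cell and endothelium markers had the order of groups of the macrophage sums too. The part of these cells was not tested. The Pla2g7 difference of -0.18 between WMW-H and AOM/DSS (limma adjusted p = 0.0495) was lost in 16 of 26 alternatives (0.014 to 0.313), among them the omission of WMW-H replicate 3 (0.114). Pnpla8, a mitochondrial and peroxisomal enzyme, fell by 0.24 in AOM/DSS (limma adjusted p = 0.00482). Its rise in WMW-H against AOM/DSS by 0.17 (limma adjusted p = 0.0331) was lost in 9 of 26 alternatives (0.00179 to 0.139), and WMW-H minus control was -0.07 (limma adjusted p = 0.399).

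Pla2g3, a secreted enzyme resembling that of bee venom, was 0.20 higher in AOM/DSS than in control (limma adjusted p = 0.0141), a call lost in 3 of 26 alternatives (0.00371 to 0.696). Pafah2, an intracellular acetylhydrolase, did not pass in AOM/DSS against control (log2 difference -0.01, limma adjusted p = 0.879), but did with size factors (-0.12, limma adjusted p = 0.0165) and after quantile normalization (-0.14, limma adjusted p = 0.00925). It was lower in WMW-H than in AOM/DSS by a difference of -0.13 (limma adjusted p = 0.0152), a call lost in 3 of 26 alternatives (0.00228 to 0.329). Pla2g12b, which lacks activity, did not pass in any comparison (limma adjusted p from 0.229 to 0.746), although AOM/DSS minus control was -0.38 after quantile normalization (limma adjusted p = 0.0316; 0.0316 to 0.562 over all alternatives). Pla2r1, the receptor for secreted phospholipases A2, averaged 0.861 FPKM in WMW-H, 0.754 FPKM in AOM/DSS and 0.601 FPKM in control and was not tested.

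Downstream of the family, 17 of 18 genes that turn arachidonate into eicosanoids or break these down were tested. In AOM/DSS against control 9 were higher, 3 lower and 5 not called (median log2 difference 0.20, all genes 0.12), beside 45.5% higher and 20.6% lower among all tested genes. These counts depended on processing. Quantile normalization gave 4 higher and 5 lower, scaling by size factors 5 higher, and a filter of 5 FPKM 1 lower. In WMW-H against AOM/DSS 3 were higher and 6 lower (median -0.14, all genes -0.07), beside 25.9% and 40.9% of all tested genes. The largest rise in AOM/DSS was that of Alox15, a lipoxygenase, at 2.35 ± 0.27 FPKM in WMW-H, 29.9 ± 0.96 FPKM in AOM/DSS and 2.07 ± 0.32 FPKM in control. That is a rise by 3.34 against control and a difference of -3.21 for WMW-H minus AOM/DSS. The largest fall was that of Hpgd, which inactivates prostaglandins, at 84.4 ± 3.4 FPKM in WMW-H, 39.6 ± 2.2 FPKM in AOM/DSS and 101 ± 2.2 FPKM in control. It fell by 1.33 in AOM/DSS and was 1.08 higher in WMW-H than in AOM/DSS. Alox15 and Hpgd were chosen among called genes by AOM/DSS against control. The other comparison shares the AOM/DSS libraries, so no p-values are given for them.

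The other product of the reaction is handled by lysophospholipid acyltransferases, lysophospholipases and receptors, of which 15 of 17 genes were tested. In AOM/DSS against control 8 were higher and 5 lower (median 0.19, all genes 0.12), beside 45.5% and 20.6% of all tested genes. In WMW-H against AOM/DSS 4 were higher and 9 lower (median -0.19, all genes -0.07), beside 25.9% and 40.9%. Mboat2, an acyltransferase, had the largest rise in AOM/DSS, by 1.12, with 3.43 ± 0.51 FPKM in WMW-H, 4.83 ± 0.21 FPKM in AOM/DSS and 1.68 ± 0.14 FPKM in control. Enpp2, which makes lysophosphatidic acid, had the largest fall and fell by 0.48. Mboat2 and Enpp2 were chosen among called genes by AOM/DSS against control, so no p-values are given for them.

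The 8 tested genes whose profile was closest to that of Pla2g4c were sought by the root mean square difference of mean-centred log2(FPKM + 1) over the 15 libraries. They were Try4 (0.24), Mptx1 (0.26), Ins2 (0.29), Iigp1 (0.30), Pla2g1b (0.32), Upp1 (0.39), Ddx60 (0.41) and Pnlip (0.44), where the median over 12504 genes was 1.43. A gene at the same level in all libraries would score 1.37, so that median is close to the score of no change. The measure rests on differences between 3 tight groups. The 8 genes were chosen for likeness to Pla2g4c, so sharing its order of groups follows from the search. Try4, Pla2g1b and Pnlip are digestive enzymes of the pancreas and Ins2 encodes insulin; Iigp1 and Ddx60 are interferon-inducible, Mptx1 is a mucosal pentraxin and Upp1 a uridine phosphorylase. Try4 averaged 737 ± 24 FPKM in WMW-H, 451 ± 10 FPKM in AOM/DSS and 2920 ± 12 FPKM in control. Mptx1 averaged 299 ± 15 FPKM in WMW-H, 187 ± 6.7 FPKM in AOM/DSS and 2330 ± 27 FPKM in control. Ins2 was near the floor outside control, at 0.762 ± 0.38 FPKM in WMW-H, 0 FPKM in AOM/DSS and 5.56 ± 0.97 FPKM in control. It passed the filter only with its control libraries, which fixed its direction there. With a pseudocount of 0.1 in place of 1, 5 of the 8 genes remained.

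**Figure D5:**
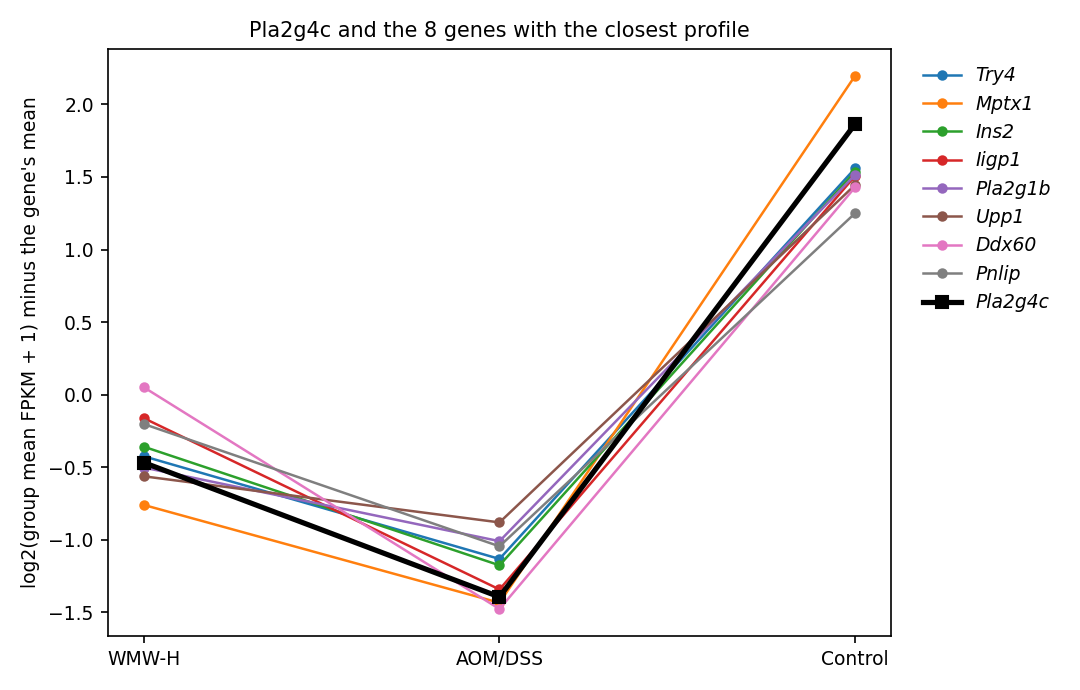
Group means as log2(FPKM + 1) minus the mean over the 3 groups (y axis) for Pla2g4c (black squares) and its 8 closest genes (coloured circles) in WMW-H, AOM/DSS and control (x axis); lines only join the points of a gene. All 9 genes are highest in control and lowest in AOM/DSS, which follows from choosing the 8 by likeness to Pla2g4c. Ins2 passed the filter on low values only with its control libraries.

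Type I interferon-stimulated genes, 15 of 16 found and tested, were called lower in AOM/DSS than in control in 15 of 15 cases (median -1.81, all genes 0.12), where 20.6% of all tested genes were lower. In WMW-H, 15 of 15 were higher than in AOM/DSS (median 1.39, all genes -0.07), where 25.9% of all tested genes were higher. Against control, 13 were lower in WMW-H (median -0.61, all genes 0.05), where 24.1% of all tested genes were lower. The 3 differences of Pla2g4c were -3.26, 0.92 and -2.34, so it lay further below control in WMW-H than the median of these genes. Ifit1, the largest fall among them, was at 26.4 ± 1.0 FPKM in WMW-H, 4.38 ± 0.68 FPKM in AOM/DSS and 39.8 ± 1.4 FPKM in control.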

How the data were processed

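Per the labels' protocols, poly(A) RNA of colon was captured with oligo(dT), and NEBNext Ultra libraries were read on an Illumina instrument. RSEM, StringTie 1.3.1, HISAT2, Bowtie2 2.2.8 and fastp 0.18.0 are the tools listed in the submitters' processing notes, without roles. The authors deposited 1 table of FPKM values, 1 column per library, with totals of 507895 to 535410 FPKM, so no common total had been set. FPKM keeps no counts, so no count model was used. Fragments per library were read from the steps of low values in 3328 genes with 1 transcript in GENCODE release M21; for 89.7% of 6773 low values the implied fragment number was whole to within 0.1.

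The 12917 genes that reached 1 FPKM in 5 or more libraries were transformed to log2(FPKM + 1), a scale that understates changes of low genes. They were fitted with limma 3.58.1 in R 4.3.3, all 15 libraries in 1 fit with an intensity trend, with two-sided p-values adjusted over all of them by the method of Benjamini and Hochberg and called under 0.05. The fit was also run on simulated data. Of 50 genes changed by a factor of 1.25 it recovered 32 to 41 over the comparisons, and all 50 of those changed by 2.0. False calls ran from 5 of 176 to 15 of 194. Few genes changed in that simulation, unlike in these data, so it does not test the scaling. The labels do not say that replicates were separate animals, so p-values measure the spread between these libraries, which may be technical. No pair agreed within counting error.

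The members and all lists were chosen with earlier results of these data known. Named genes were the 8 members, the wider family, the called genes with the largest rise and fall in AOM/DSS of each other list, and the 8 closest to Pla2g4c, without gene models, pseudogenes and receptor segments. Alternatives changed the pseudocount, filter, scaling, trend, libraries, block or test. Figures used matplotlib 3.10.9.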

Additional observations from a re-analysis of the deposited data

Results flagged for a closer look

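Pafah2 in control replicate 1, at 21.7 FPKM, lay further from the other control libraries, at 23.4 to 23.8 FPKM, than the critical value for 5 samples allows, with a gap of 0.821 of the group's range. It was 1 of 54 groups of 5 libraries examined over the tested family genes, and chance flags about 1 in 20.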

How the results depend on the processing

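Of 21 results for the 7 members other than Pla2g4c, 17 kept their direction of call or lack of one under all of up to 26 alternatives each. The others were the 3 comparisons of Pla2g10 and WMW-H against control of Pla2g12a. The 17 include those of Pla2g4f against control, whose direction the filter fixed, so these 17 overstate the stability. Of 45 results for the 10 tested genes of the wider family and the 5 list extremes, 33 kept theirs. The 33 include those of Pla2g2e against AOM/DSS, whose direction the filter fixed. They also include the list extremes in AOM/DSS versus control, the comparison by which these were chosen. Quantile normalization moved the genes called in AOM/DSS versus control to 3765 higher and 4167 lower, against 5881 and 2658 as deposited; 47.5% of calls were then higher, 51.3% with size factors and 68.9% as deposited. It took the median difference of all genes to -0.02 and size factors to 0.01, from 0.12. It also moved the Pla2g4f share of the family sum in control to 0.538%, against 0.436%, and turned Pla2g2e in WMW-H versus control to -0.09. The cause was not tested. Pla2g4c differences ran from -3.26 to -3.46 for AOM/DSS minus control over pseudocounts and scalings. Leaving out 1 library at a time gave 5668 to 6004 genes higher and 2538 to 2735 lower in AOM/DSS versus control, 3207 to 3390 and 5128 to 5284 in WMW-H versus AOM/DSS, and 4368 to 4647 and 2949 to 3115 in WMW-H versus control. Same-numbered libraries did not deviate together (r from -0.047 to 0.03 over 15 pairs), so the numbers do not pair them. With the replicate number as a block, 5849 genes were called higher and 2636 lower in AOM/DSS versus control, no call on a member changed, and Pla2g2e in WMW-H versus control lost its call (limma adjusted p = 0.0664). Pla2g4f in control rests on about 36 fragments per library, which limits its fold.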
